A study of Sus scrofa with 8 samples.

Results

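The genes described here encode the integrin adhesion machinery and the dystrophin complex of the costamere, the band of the heart muscle cell membrane where the Z-disc is tied to the matrix outside. They were chosen by name as 33 genes: 10 alpha integrins, 4 beta integrins with the integrin-binding chaperone gene ITGB1BP2, 8 genes of the talin, vinculin, kindlin and ILK layer, 3 of the FAK, paxillin and zyxin group, and 7 of the dystrophin complex. Of these, 31 matched 1 of the 31908 gene models by the name in the authors' deposited table, and LIMS1 matched by a reference table of gene names only, because its human counterpart is not one-to-one. SGCB, the beta-sarcoglycan gene, overlaps a gene model on chromosome 8 (39106912 to 39148747, Sscrofa11.1) that also covers exons of LRRC66, so it has no value of its own. All 32 matched genes passed the filter on low counts.

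Integrins are membrane receptors made of 1 alpha and 1 beta chain. Outside the cell they bind laminin, collagen or fibronectin, and inside it talin and kindlin switch them on while vinculin, ILK with its partners, and FAK link them to actin and to signalling. The dystrophin complex runs beside them: dystroglycan grips laminin, the sarcoglycans steady it, and dystrophin or its relative utrophin joins it to actin under the membrane. In heart muscle both systems carry force sideways between the contractile apparatus and the matrix, and inherited loss of dystrophin or of a sarcoglycan causes cardiomyopathy.

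Each bulk RNA library came from 1 Yorkshire Cross pig and was made from the free wall of its right ventricle. In 4 castrated males the main pulmonary artery had been banded at 4.5 ± 0.6 weeks of age and 6.4 ± 1.3 kg, with the tape tightened until right ventricular peak pressure was about 30 to 40 mmHg. The other 4 animals were untreated controls of similar age and weight, housed for 8 weeks, with no sham operation named and no sex stated in the labels. How long the bands had been in place at collection is not stated in the labels. Libraries held 31033679 to 34183338 counts, of which mitochondrial transcripts took 30.5% to 39.7% in banded and 35.3% to 43.9% in control animals. Levels are counts scaled to a common library total with TMM factors (CPM), and levels of different genes are compared as CPM per kilobase of gene model. In whole tissue, fewer cells of a type and less RNA per cell cannot be told apart, and surgery and any unrecorded batch cannot be told apart from banding.

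Of the 6 measured cardiomyocyte markers, the most abundant was MYL2, the ventricular regulatory light chain, at 17465 ± 2543 CPM in banded and 9264 ± 1353 CPM in control animals (SD, n = 4 each). The 6 summed to 30037 to 38725 CPM in banded and 22680 to 30687 CPM in control libraries, mostly through MYL2 and TNNT2. MYL2 was the 1 marker called. TNNT2 was not called (log2 fold change 0.26), though every banded library lay above every control. RYR2 (-0.74), MYBPC3 (-0.33) and MYL3 (-0.19) had log2 fold changes below 0, and MYBPC3 was below every control in every banded library. TNNI3 was also below 0 (-1.25), and the median of -0.26 over the 6 includes it. The gene model of TNNI3, cardiac troponin I, held only 6.45 ± 3.74 CPM in banded and 15.3 ± 3.64 CPM in control animals. TNNT2, cardiac troponin T, held 9748 ± 450 CPM in banded and 8140 ± 1138 CPM in control animals. Whether the TNNI3 model captures its transcript was not tested, so its value is not read as the level of that transcript. The 6 endothelial markers summed to 814 to 842 CPM in banded and 778 to 914 CPM in control libraries, and the 6 fibroblast markers to 2407 to 3386 CPM in banded and 2395 to 3380 CPM in control libraries. The 7 leukocyte markers summed to 539.6 to 1003 CPM in banded and 340.5 to 537 CPM in control libraries, a gap of little width between the nearest libraries. That sum was mostly C1QB, C1QA and CD163, and 0 of the 7 were called by edgeR. The log2 fold changes were 1.11 for CD163, 0.65 for C1QB, 0.64 for C1QA, 0.58 for CD68 and 0.41 for CSF1R. PTPRC and CD3E were at -0.21 and -0.25, and the median over the 7 was 0.58. DESeq2 passed CD163, C1QB and C1QA (adjusted p = 0.00981, 0.0172 and 0.044), and limma-voom CD68, CD163 and C1QB (0.0356, 0.0428 and 0.0315). Of the 8 smooth muscle and pericyte markers 0 were called by edgeR, and their median log2 fold change was -0.43. MYH11 was at -0.90, NOTCH3 at -0.50, RGS5 at -0.45, ACTA2 at -0.44 and PDGFRB at -0.42. RGS5 was lower in every banded library than in every control. CNN1 was at 2.66, TAGLN at 0.27 and KCNJ8 at 0.20. DESeq2 passed CNN1, RGS5 and MYH11 (adjusted p = 0.00259, 0.0155 and 0.0418). The part of these cell type markers in the results below was not tested.

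Banded 3 stood apart from the other banded libraries. Among the 32 genes it was the highest of all 8 libraries for 12, against 0 to 7 for any other library. Its 8 smooth muscle and pericyte markers summed to 2384 CPM, where banded 1, 2 and 4 lay between 833 and 1171 CPM and the controls between 1004 and 1334 CPM, largely through CNN1, the smooth muscle calponin (1348 CPM, where the remaining banded libraries held 156 to 349 CPM and the controls 61.7 to 116 CPM). The 8 markers did not move together. TAGLN was also the highest of all 8 libraries there (460 CPM), but MYH11 (40.8 CPM) and RGS5 (216 CPM) were the lowest of all 8 in banded 3. The authors' deposited table matched a fit without this library: DESeq2 on the 7 other libraries gave the log2 fold change of that table, within 0.001, for 16302 of 16302 genes, while a fit of all 8 did so for 68. Results below rest on 8 libraries, and values without banded 3 are given for the genes it moved most. Other libraries also stood out. Banded 1 held 199 CPM of the adipocyte marker ADIPOQ, where the others held 2.60 to 23.5 CPM. Banded 4 held 1730 CPM of HBB, an erythroid marker, where the others held 72.0 to 313 CPM. Chi-square over degrees of freedom was 132 to 154 between control 4 and the other controls, and 29.2 to 34.1 among those. It was 173 to 188 between banded 3 and the other banded libraries, and 52.8 to 90.0 among those.

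Across all genes tested, 954 of 13697 were called at an edgeR quasi-likelihood adjusted p under 0.05, or 6.97%, with 3.47% higher and 3.50% lower in banded animals. Among the 32 genes 4 were called higher and 0 lower: ITGA7, ITGA10, ITGAV and ITGB1BP2. The 28 others were not called, although 12 of the 32 had an unadjusted edgeR p under 0.05, against 23.8% of all genes. DESeq2 called 6 higher and 0 lower (5.32% higher and 5.01% lower of all genes it tested, or 10.3% in all), and limma-voom 6 higher and 1 lower (4.99% and 4.80%, or 9.79% in all). There was no overlap between the 2 groups of libraries for 7 genes that were higher and 1 that was lower in banded animals, against 7.66% and 8.20% of all genes tested, or 15.9% in all. The median log2 fold change of the 32 genes was 0.02, the same as that of all genes tested, and the 4 calls were 3 alpha integrins and the gene for a chaperone of ITGB1.

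**Figure D1:**
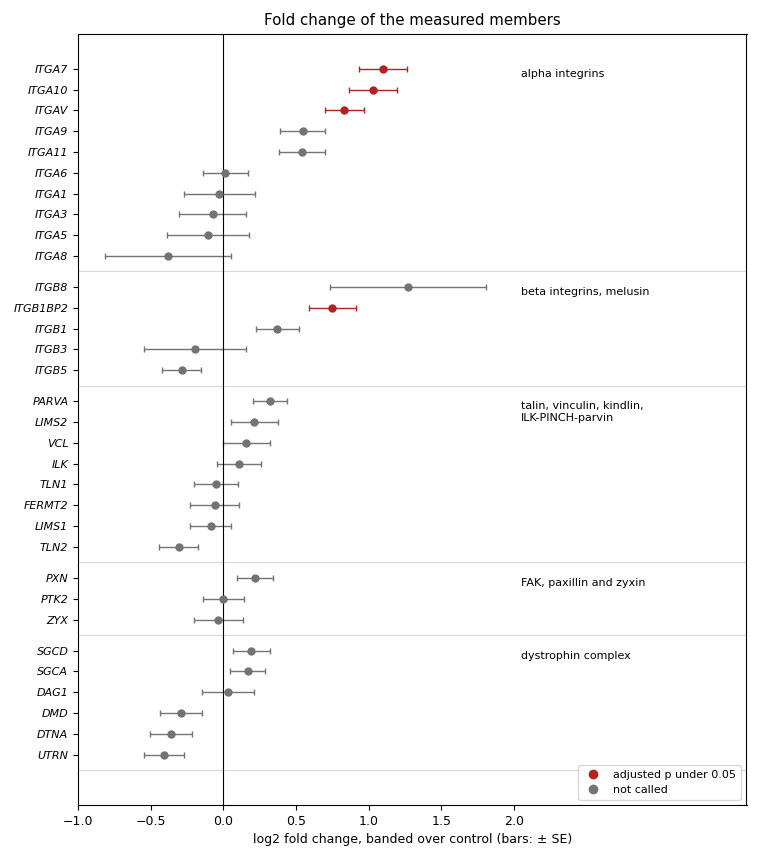
Log2 fold change, banded over control, of the 32 measured genes from the edgeR fit, with bars of 1 SE each way, arranged by role from alpha integrins at the top to the dystrophin complex at the bottom. The 4 genes called at an adjusted p under 0.05 (red) are 3 alpha integrins and ITGB1BP2, and no called gene lies below 0.

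ITGA7, the alpha chain of the main laminin receptor of adult muscle, held 384, 478, 341 and 309.6 CPM in banded 1 to 4, against 189.6, 191, 180.3 and 145 CPM in controls 1 to 4. Every banded library lay above every control library. The log2 fold change was 1.10 ± 0.17 (SE), a 2.14-fold difference of means, with an edgeR adjusted p of 0.00363. The gene lies on chromosome 5 (21126565 to 21148776, minus strand, Sscrofa11.1), and its exons share bases with genes on the opposite strand, which were counted with a strand setting. It was called in all 8 fits that left out 1 library, with log2 fold changes of 0.97 to 1.19.

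ITGAV, the alpha chain that pairs with several beta chains to bind vitronectin, fibronectin and latent TGF-beta, held 60.2, 71.9, 74.7 and 71.0 CPM in banded 1 to 4, against 38.9, 45.1, 40.1 and 31.8 CPM in controls 1 to 4. The banded libraries were close to each other and all above the controls. The log2 fold change was 0.83 ± 0.14 (edgeR adjusted p = 0.00561), and 0.75 to 0.91 when any 1 library was left out, with the call kept in all 8 fits.

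ITGA10, the alpha chain of a collagen receptor best known from cartilage, was the third alpha integrin to rise. It held 11.6, 12.7, 10.3 and 9.84 CPM in banded 1 to 4, against 5.84, 4.58, 5.90 and 5.48 CPM in controls 1 to 4. The groups did not overlap, with a log2 fold change of 1.03 ± 0.17 (edgeR adjusted p = 0.00561) that was called in all 8 fits without 1 library. The mean count behind it was 270.5 per library.

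ITGA9, whose product binds tenascin and other matrix ligands, held 34.8, 29.4, 36.3 and 24.4 CPM in banded 1 to 4, against 17.4, 21.7, 22.6 and 24.0 CPM in controls 1 to 4. The groups did not overlap, but banded 4 lay just above control 4. The log2 fold change of 0.54 ± 0.16 missed the threshold in edgeR (adjusted p = 0.0609) and passed it in DESeq2 (0.0363) and limma-voom (0.0328). In the authors' deposited table, which matches the fit without banded 3, its adjusted p was 0.0898. The model shares exon bases with GOLGA4 on the same strand.

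ITGA11, the collagen receptor chain of fibroblasts, held 22.3, 31.3, 24.9 and 24.4 CPM in banded 1 to 4, against 15.8, 20.7, 14.7 and 19.5 CPM in controls 1 to 4. Here too every banded library exceeded every control. The log2 fold change was 0.54 ± 0.16, with an adjusted p of 0.0632 in edgeR, 0.0369 in DESeq2, 0.0493 in limma-voom and 0.0427 in the authors' deposited table. PDGFRA, a fibroblast marker, was at 35.7 to 47.7 CPM in banded and 55.3 to 69.0 CPM in control libraries (log2 fold change -0.49 ± 0.13, edgeR adjusted p = 0.048), a call that ended in 6 of the 8 fits without 1 library. The other 5 of the 6 fibroblast markers were not called by edgeR and went both ways: LUM at 0.58 ± 0.19 (edgeR adjusted p = 0.0839, DESeq2 0.031), COL1A2 and DPT both at 0.13, DCN at -0.18 and TCF21 at -0.23. The median over the 6 was -0.03, and the part of fibroblast markers in the ITGA11 values was not tested.

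The other 5 alpha integrins overlapped between the groups and were not called by edgeR, with log2 fold changes of -0.38 to 0.01. ITGA5, the fibronectin receptor chain, varied most among the abundant ones: it held 185, 110.1, 328 and 151 CPM in banded 1 to 4, against 190.3, 195, 209.5 and 240.3 CPM in controls 1 to 4. Banded 3 was the highest of all 8 libraries and the other banded libraries were all below every control, and the log2 fold change was -0.11 ± 0.28 with banded 3 and -0.49 ± 0.18 without it (edgeR adjusted p = 0.859 and 0.137). ITGA6, a laminin receptor chain of endothelium and other cells, was level at 53.3 ± 9.13 CPM in banded and 52.9 ± 6.63 CPM in control animals (SD, n = 4 each). ITGA1, a collagen receptor chain, was at 21.6 ± 8.30 CPM in banded and 22.0 ± 2.19 CPM in control animals. ITGA3 and ITGA8 were low, at 4.82 to 9.50 CPM and 1.36 to 8.27 CPM over the 8 libraries. ITGA8 was lowest in banded 3, and its log2 fold change was -0.38 ± 0.43 with that library and -0.078 ± 0.28 without it. ITGA1 was at -0.03 with banded 3 and -0.25 without it.

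**Figure D2:**
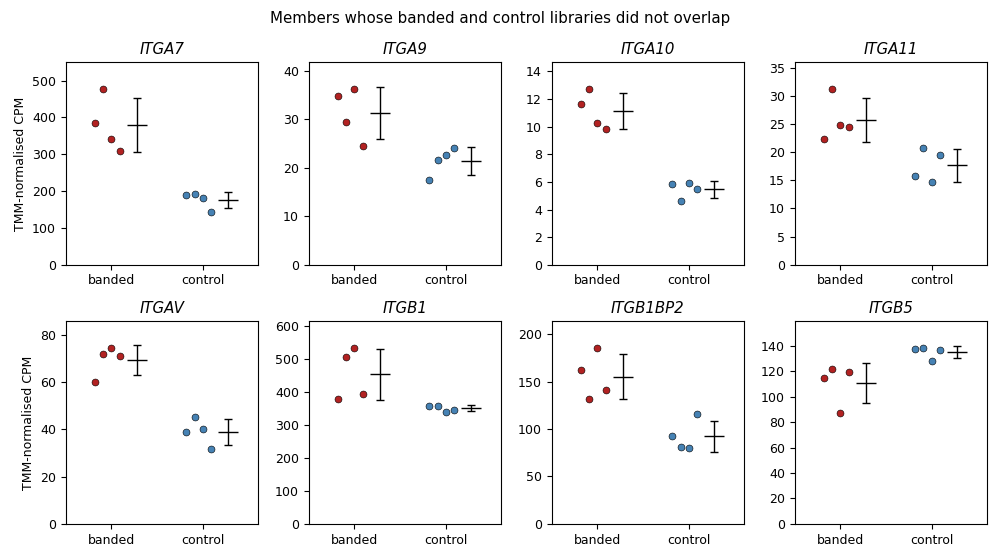
TMM-normalised CPM in each library (points, banded left of control) for the 8 genes whose groups did not overlap, with the group mean and SD beside them. All axes start at 0. Banded libraries lie above control libraries for 7 genes and below them for ITGB5.

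Summed per kilobase, the 10 alpha integrins came to 159 ± 20.1 CPM per kilobase in banded and 104 ± 2.34 CPM per kilobase in control animals (SD, n = 4 each). ITGA7 made up 59.9%, 68.6%, 48.8% and 58.9% of that sum in banded 1 to 4, against 45.0%, 44.9%, 42.1% and 35.5% in controls 1 to 4. ITGA5 made up 18.9%, 10.3%, 30.7% and 18.8% in banded 1 to 4, against 29.5%, 30.1%, 32.0% and 38.6% in controls 1 to 4, and only banded 3 reached the control range. These shares were computed after the fold changes were known and have no test. A rise of ITGA7 lowers the shares of the other chains even where their levels are unchanged. ITGA6 took 5.33% to 6.48% in banded and 7.13% to 9.59% in control libraries, while its level was the same. By ligand, the laminin-binding chains ITGA3, ITGA6 and ITGA7 summed to 84.9 to 130.4 CPM per kilobase in banded and 46.0 to 58.4 in control libraries. That gap came from ITGA7, with means of 94.0 CPM per kilobase in banded and 43.8 in control animals. ITGA6 was at 9.30 and 9.22, and ITGA3 at 0.907 and 0.954. The collagen-binding chains ITGA1, ITGA10 and ITGA11 summed to 8.42 to 12.2 in banded and 7.71 to 9.26 CPM per kilobase in control libraries, and the RGD-binding chains ITGA5, ITGA8 and ITGAV to 29.2 to 64.1 in banded and 37.4 to 44.2 CPM per kilobase in control libraries.

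**Figure D3:**
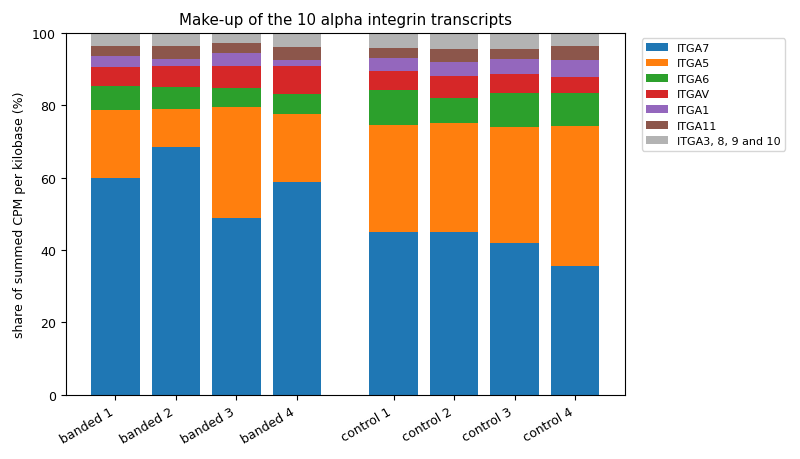
Share of each alpha integrin in the summed CPM per kilobase of the 10 alpha integrin genes, in percent, for each banded library (left) and control library (right). ITGA7 takes 48.8% to 68.6% in banded and 35.5% to 45.0% in control libraries, and the ITGA5 share in banded 3 is 30.7%.

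Within each library, ITGA5 was set against ITGA7 as a ratio of counts per base, which does not depend on the scaling. The log2 ratio was -1.66, -2.73, -0.67 and -1.65 in banded 1 to 4, against -0.61, -0.58, -0.40 and 0.12 in controls 1 to 4. The groups did not overlap, and the means differed by -1.31. An exact two-sided permutation test gave p = 0.0286, the smallest that 70 assignments allow, and 0.114 after adjustment over the 4 ratios computed. With that floor, 1 ratio alone at the smallest p cannot pass after adjustment, so the adjusted value does not decide whether the ratio differed.

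Among the beta chains, ITGB1, the partner of most of these alpha chains, held 378, 505, 534 and 392 CPM in banded 1 to 4, against 358, 356, 338 and 346 CPM in controls 1 to 4. The controls were within a narrow range and all banded libraries lay above it, but the log2 fold change of 0.37 ± 0.15 was not called (edgeR adjusted p = 0.156, and 0.106 in DESeq2). ITGB5, a partner of ITGAV, went the other way, with 115, 122, 87.3 and 119.6 CPM in banded 1 to 4, against 138, 139, 128 and 137 CPM in controls 1 to 4. It was the only one of the 32 genes below every control in all banded libraries, and it was not called either (log2 fold change -0.29 ± 0.13, edgeR adjusted p = 0.217). Of the summed CPM per kilobase of the 4 beta chains, ITGB1 took 55.8% to 66.2% in banded and 49.2% to 50.1% in control libraries, and ITGB5 26.8% to 42.0% in banded and 46.6% to 48.2% in control libraries. These shares too are a description with no test.

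ITGB8, which pairs with ITGAV and is known for activating TGF-beta, held 7.93, 9.64, 42.4 and 11.2 CPM in banded 1 to 4, against 6.25, 6.99, 9.05 and 7.27 CPM in controls 1 to 4. Its log2 fold change of 1.27 ± 0.54 rested on banded 3 and was 0.38 ± 0.19 without it (edgeR adjusted p = 0.198 and 0.271). ITGB3, a further ITGAV partner known from platelets and endothelium, was at 9.08 ± 5.06 CPM in banded and 10.4 ± 2.14 CPM in control animals, with 15.6 CPM in banded 3 and 4.55 CPM in banded 4. ITGB3 was not called (edgeR adjusted p = 0.789), with a log2 fold change of -0.19 with banded 3 and -0.59 without it.

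ITGB1BP2 encodes melusin, a muscle chaperone that binds the ITGB1 tail and is known in mice as a sensor of pressure load. It held 162, 132, 186 and 141 CPM in banded 1 to 4, against 92.6, 81.1, 80.4 and 116 CPM in controls 1 to 4. All banded libraries exceeded all controls, of which control 4 came nearest. The log2 fold change was 0.75 ± 0.16 (edgeR adjusted p = 0.0198), and the call ended without control 1 (0.0647), control 2 (0.0753) or control 3 (0.0751). Without banded 3 it was 0.65 (edgeR adjusted p = 0.0303). The gene lies on chromosome X (57316579 to 57321613) and shares exon bases with NONO on the same strand. Y-linked transcripts (DDX3Y, KDM5D and EIF1AY) were present in all libraries, summing to 81.0 to 102 CPM in banded and 87.9 to 113 CPM in control animals.

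Among the 8 genes that link integrins to actin, ILK, the pseudokinase at the centre of the ILK-PINCH-parvin complex, was by level the most abundant of all 32 genes per kilobase, at 133 ± 21.4 CPM per kilobase in banded and 123 ± 13.0 in control animals (SD, n = 4 each). ITGB1BP2 followed at 117 ± 18.1 CPM per kilobase in banded and 69.6 ± 12.4 in control animals, and ITGA7 at 94.0 ± 18.2 in banded and 43.8 ± 5.39 in control animals. PARVA, the widely expressed parvin, came nearest to a call among the linker genes: 60.3, 60.3, 58.3 and 49.0 CPM in banded 1 to 4, against 49.1, 41.7, 45.7 and 46.1 CPM in controls 1 to 4 (log2 fold change 0.32 ± 0.12, edgeR adjusted p = 0.128). Banded 4 fell just inside the control range. Of these 8 genes 0 were called by edgeR, DESeq2 or limma-voom and 0 separated the groups, and with 6.97% of all genes called by edgeR and 15.9% separated, so small a set can give 0 without differing from other genes. VCL, the vinculin gene, was at 220.2 ± 43.8 CPM in banded and 197 ± 19.5 CPM in control animals, with its highest value, 277 CPM, in banded 3, and its log2 fold change was 0.16 ± 0.16 with that library and 0.028 ± 0.14 without it.

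The talins and PINCH proteins each come as 2 related genes, and neither ratio had an exact permutation p under 0.05 before adjustment. TLN1, the widely expressed talin, was at 172 ± 29.6 CPM in banded and 178 ± 14.2 CPM in control animals. TLN2, the talin of mature striated muscle, held 44.7 to 58.4 CPM in banded and 54.6 to 70.9 CPM in control libraries (log2 fold change -0.31 ± 0.13, edgeR adjusted p = 0.189). The TLN1 to TLN2 ratio per base was 3.45 in banded and 2.92 in control animals as a geometric mean, with an exact permutation p of 0.171 (0.343 adjusted over the 4 ratios). LIMS1 and LIMS2, which encode the PINCH adaptors of ILK, gave a ratio of 0.217 in banded and 0.265 in control animals (exact permutation p = 0.343, adjusted 0.429), so LIMS2 was the more abundant per base in both. LIMS1 was at 39.4 ± 5.57 CPM in banded and 41.9 ± 5.90 CPM in control animals, and LIMS2 at 99.1 ± 22.1 CPM in banded and 85.5 ± 10.2 CPM in control animals, with its highest value, 131 CPM, in banded 4. FERMT2, the kindlin of muscle, was at 97.0, 96.5, 160.2 and 116 CPM in banded 1 to 4, against 116 to 127 CPM in controls, where banded 3 again exceeded every other library. Its log2 fold change was -0.06 with banded 3 and -0.25 without it (edgeR adjusted p = 0.866 and 0.268).

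The FAK, paxillin and zyxin genes, which carry signals from adhesions, were also not called. PTK2, the focal adhesion kinase, was at 42.9 ± 8.34 CPM in banded and 42.8 ± 2.17 CPM in control animals, with its highest value, 55.1 CPM, in banded 3 and 37.2 to 41.2 CPM in banded 1, 2 and 4. PXN, paxillin, was at 74.3 ± 9.02 CPM in banded and 63.8 ± 4.72 CPM in control animals (edgeR adjusted p = 0.314). ZYX, the zyxin gene, whose product moves to strained actin fibres, spread from 130.0 to 218 CPM in banded and from 159 to 191 CPM in control libraries. Its highest value was again in banded 3, and its log2 fold change was -0.03 with that library and -0.18 without it (edgeR adjusted p = 0.927 and 0.537). For PTK2 the log2 fold change without banded 3 was -0.14.

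In the dystrophin complex, DAG1, which encodes both chains of dystroglycan and was the most abundant of its genes per kilobase, was at 218 ± 45.4 CPM in banded and 213 ± 33.3 CPM in control animals (edgeR adjusted p = 0.935). SGCA and SGCD, the alpha- and delta-sarcoglycan genes, which steady dystroglycan, had log2 fold changes of 0.17 ± 0.12 and 0.19 ± 0.13. SGCA held 61.2 to 79.9 CPM in banded and 59.0 to 64.2 CPM in control libraries, and SGCD 30.0 to 39.7 CPM in banded and 29.5 to 33.2 CPM in control libraries. DMD, dystrophin itself and X-linked, held 90.1, 78.6, 74.4 and 77.0 CPM in banded 1 to 4, against 124, 88.0, 97.9 and 82.8 CPM in controls 1 to 4 (log2 fold change -0.29 ± 0.15, edgeR adjusted p = 0.246). Of the 6 measured genes of the complex 0 were called higher and 0 lower by edgeR and 0 separated the groups, and beside 6.97% called and 15.9% separated over all genes this count does not set the complex apart.

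UTRN, the widely expressed relative of dystrophin, held 80.8, 68.9, 92.7 and 80.1 CPM in banded 1 to 4, against 112, 116, 112 and 87.8 CPM in controls 1 to 4. Only banded 3 and control 4 overlapped. The log2 fold change was -0.41 ± 0.14, with an adjusted p of 0.100 in edgeR, 0.0828 in DESeq2 and 0.0315 in limma-voom. DTNA, which encodes alpha-dystrobrevin, the binding partner of dystrophin and syntrophin, held 46.3, 45.4, 61.3 and 52.6 CPM in banded 1 to 4, against 68.8, 77.0, 60.6 and 57.6 CPM in controls 1 to 4 (log2 fold change -0.36 ± 0.14, edgeR adjusted p = 0.152). Again banded 3 was the library that entered the control range. In the authors' deposited table, which matches the fit without it, UTRN and DTNA were both called, with adjusted p of 0.018 and 0.032 and log2 fold changes of control over banded of 0.48 and 0.46. That table called 5 of the 32 genes higher and 2 lower in banded animals, against 5.01% and 5.55% of the genes it tested, or 10.6% in all. The UTRN to DMD ratio per base was 0.839 in banded and 0.917 in control animals and overlapped between the groups (exact permutation p = 0.429, adjusted 0.429).

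**Figure D4:**
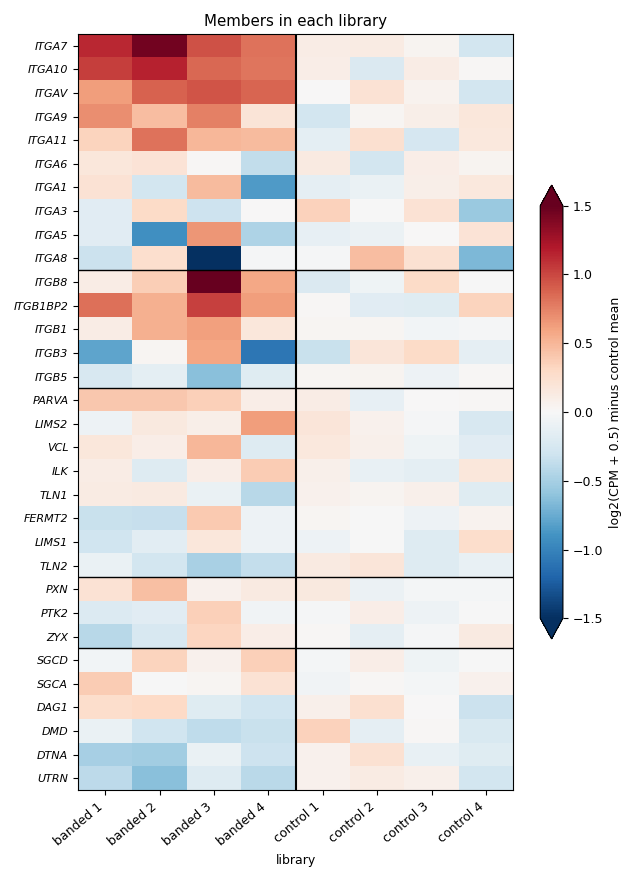
Each of the 32 genes in each library, as log2(CPM + 0.5) minus the mean of the 4 control libraries, with banded libraries left of control libraries and black lines between roles. ITGA7, ITGA9, ITGA10, ITGA11 and ITGAV are red in all 4 banded libraries. ITGB1, ITGB1BP2, ITGB8, PARVA and PXN also lie above the control mean in all 4. ITGB8, ITGA5 and ITGB3 show how far banded 3 departs from the other banded libraries.

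**Figure D5:**
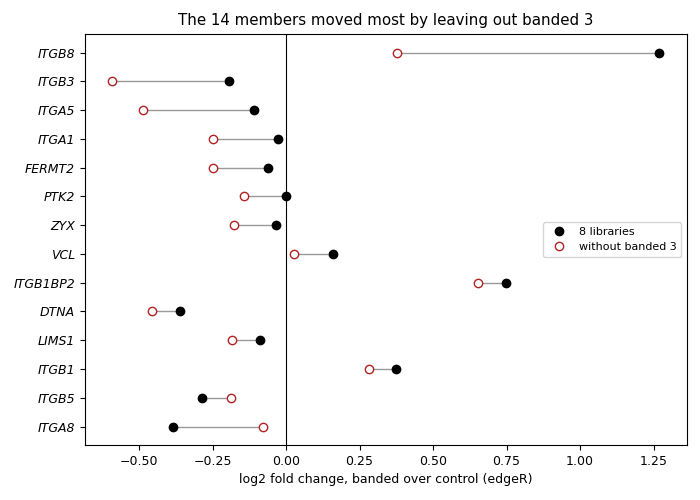
Log2 fold change, banded over control, for the 14 genes moved most when banded 3 is left out of the edgeR fit (open red points) against the fit of 8 libraries (black points). ITGB8 lies at 0.38 without banded 3 and at 1.27 with it, and ITGA5 at -0.49 without it and at -0.11 with it.

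The SD of log2(CPM + 0.5) was larger in banded than in control animals for 25 of the 32 genes, or 78.1%, against 67.4% of all genes tested. Its median over the 32 genes was 0.25 in banded and 0.18 in control animals, and 0.23 in banded animals without banded 3. Over all genes tested these medians were 0.29, 0.21 and 0.24. Without banded 3 the SD was larger in banded animals for 22 of the 32 genes and for 7663 of all 13697. Leaving out banded 3 moved the log2 fold change of 5 of the 32 genes by more than 0.2: ITGB8, ITGB3, ITGA5, ITGA8 and ITGA1, as the plot of fold changes with and without that library shows.

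The lists of other genes of the same structures are short, and their counts stand against 3.47% called higher and 3.50% called lower, or 6.97% in all, of all genes tested. Of 10 further integrins tested, 0 were called higher and 1 lower. That gene was ITGB6, an epithelial partner of ITGAV, with 22.2, 20.8, 16.4 and 23.7 CPM in banded 1 to 4, against 42.1, 48.8, 36.0 and 34.7 CPM in controls 1 to 4 (log2 fold change -0.96 ± 0.16, edgeR adjusted p = 0.00568). The groups were well apart, and the call held without any 1 library. Among 37 further adhesion genes tested 2 were called higher and 1 lower. PARVB, the parvin abundant in heart and skeletal muscle, held 37.0, 41.9, 55.0 and 56.7 CPM in banded 1 to 4, against 24.2, 22.1, 14.2 and 16.2 CPM in controls 1 to 4 (log2 fold change 1.31 ± 0.20, edgeR adjusted p = 0.00386), which was also called without any 1 library. SORBS2, an adaptor of the Z-disc and adhesions, rose (log2 fold change 0.71 ± 0.15, edgeR adjusted p = 0.0167), and FBLIM1, which encodes the filamin and kindlin binding protein migfilin, fell (-0.62 ± 0.13, edgeR adjusted p = 0.0205). The SORBS2 call ended without control 1 or 3 and with scaling by library size alone (0.053, 0.067 and 0.0526), and the FBLIM1 call without control 1 or 2 (0.07 and 0.0597). NEXN, an actin-binding protein of the Z-disc and the most abundant per kilobase of these adhesion genes, was at 652 ± 282 CPM in banded and 458 ± 47.7 CPM in control animals and was not called (edgeR adjusted p = 0.244). Its log2 fold change was 0.51 with banded 3, which held 1063 CPM, and 0.17 without it.

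Of 17 further genes of the dystrophin complex and of dystroglycan glycosylation tested, 1 was called higher and 0 lower. CAV3, the muscle caveolin, which binds dystroglycan, held 154, 144, 198 and 180.1 CPM in banded 1 to 4, against 112, 103, 105 and 121 CPM in controls 1 to 4 (log2 fold change 0.61 ± 0.14, edgeR adjusted p = 0.023). Its call ended without control 1, 2 or 3 (adjusted p 0.0714 to 0.0836). Of 15 costamere cytoskeleton genes tested, 2 were called higher and 1 lower (13.3% and 6.67%, beside 3.47% and 3.50% of all genes), with a median log2 fold change of 0.15. DES, the desmin that rings the Z-disc, held 9825 to 13798 CPM in banded and 2377 to 3843 CPM in control libraries (log2 fold change 1.92 ± 0.20, edgeR adjusted p = 0.00047). KRT18, a keratin reported at costameres of skeletal muscle, held 1.01 to 4.95 CPM in banded and 0.0587 to 0.264 CPM in control libraries, so the size of its rise is imprecise. ANK2, an ankyrin that anchors dystrophin and ion transporters at the membrane, fell (log2 fold change -0.63 ± 0.15, edgeR adjusted p = 0.0327). Among the 8 fits that leave out 1 library, it was called in those without banded 3 and without control 4, and the other 6 gave adjusted p of 0.0622 to 0.11.

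The matrix ligands of these receptors had 3 genes called higher and 1 lower of 23 tested (13.0% and 4.35%, beside 3.47% and 3.50% of all genes), with a median log2 fold change of -0.02. FN1, fibronectin, the ligand of ITGA5, ITGA8 and ITGAV receptors, held 524, 1034, 593 and 432 CPM in banded 1 to 4, against 305, 301, 316 and 276 CPM in controls 1 to 4 (log2 fold change 1.11 ± 0.24, edgeR adjusted p = 0.0205). NID2, a basement membrane nidogen, held 202, 225, 240.2 and 241 CPM in banded 1 to 4, against 148, 147, 139.7 and 144 CPM in controls 1 to 4 (log2 fold change 0.65 ± 0.12, edgeR adjusted p = 0.00958), and its call held without any 1 library. LAMB2, the laminin beta chain of muscle basement membrane and part of the ligands of ITGA7 and dystroglycan, held 348, 416, 275 and 300.2 CPM in banded 1 to 4, against 659.7, 635, 607 and 456 CPM in controls 1 to 4 (log2 fold change -0.82 ± 0.17, edgeR adjusted p = 0.0197). NPNT, nephronectin, a ligand of ITGA8, was higher but uneven at 6.32, 14.1, 9.37 and 22.3 CPM in banded 1 to 4, against 4.36 to 5.05 CPM in controls (log2 fold change 1.47 ± 0.33, edgeR adjusted p = 0.0248). FN1 lost its call when any control was left out (adjusted p 0.0524 to 0.066) and with scaling by library size alone (0.0628), NPNT when any control or banded 2 was left out (0.0575 to 0.0801), and LAMB2 when control 1, 2 or 3 was (0.0607 to 0.067). COL4A1, a basement membrane collagen and the most abundant of these ligands per kilobase, was not called (edgeR adjusted p = 0.458).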

How the data were processed

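RNA of frozen tissue powder was extracted with TRIzol and a column kit with a DNase step, per the labels' protocols. Read pairs were assigned to genes with featureCounts 1.6.2 (mapping quality of at least 10, strand setting 2), per the file headers, on Ensembl release 106 of Sscrofa11.1. The command named 24 libraries, of which 8 were analysed. Trimmomatic, HISAT2 and DESeq2 are named in the submitters' processing notes, without versions. The counts are deposited as whole numbers, not normalised. The authors' deposited table holds the mean normalised signal of a gene, its log2 fold change (control over banded) and standard error, the Wald score, and p-values before and after adjustment. It was used for names and for comparison.

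Genes were filtered with filterByExpr (minimum count 10, minimum total 15), scaled by TMM and tested in R 4.3.3 with edgeR 4.0.16 (quasi-likelihood F test, robust, no covariates), with Benjamini-Hochberg adjustment over 13697 genes. The procedure was tested on simulated counts. The standard error is the log2 fold change over the square root of F. The 4 ratios per base used a prior count of 0.5 and exact permutation tests over animals, adjusted over the 4. The edgeR p-value sets the group difference against the spread between animals, and the permutation p-value against the other assignments of animals to groups. No library copied another (chi-square over degrees of freedom at least 29.2 within groups). Alternatives were DESeq2 1.42.0, limma-voom 3.58.1 with quality weights, other scaling and filters, omission of mitochondrial-genome genes, each library left out and, chosen after seeing the data, DESeq2 without banded 3. The members and lists were chosen with earlier results of these data known. All members were named. From each other list, up to 4 called genes, by adjusted p, and the gene most abundant per kilobase were named. CNN1, the sex-linked genes and the integrin shares were chosen after their values were seen. Some annotation detail is not reported here.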

Additional observations from a re-analysis of the deposited data

Results flagged for a closer look

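In 4 of the 72 groups screened (36 quantities in 2 groups of 4 libraries), 1 library lay far from the other 3, measured as its gap to the nearest library over the range of the group. Chance gives this in about 1 in 20 groups. ITGB8 was at 42.4 CPM in banded 3, against 7.93 to 11.2 CPM in the other banded libraries. ITGB5 was at 128 CPM in control 3, against 137 to 139 CPM in the other controls. TLN1 was at 157 CPM in control 4, against 183 to 187 CPM in the other controls. UTRN was at 87.8 CPM in control 4, against 112 to 116 CPM in the other controls.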

How the results depend on the processing

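No paired analysis was possible because the labels give the banded and control animals no shared replicate numbers. ITGA7, ITGA10 and ITGAV stayed called under every alternative run, and ITGB1BP2 under all but 3 of the fits that left out 1 control. Of all genes, 475 were called higher and 479 lower by edgeR, 839 and 790 by DESeq2, and 303 and 508 with scaling by library size, which shifted the median over all tested genes by -0.10 on the log2 scale and took the share of calls that were higher to 37.4%, against 49.8%. DESeq2 without banded 3, chosen after seeing the data, called 733 higher and 801 lower of 15226 genes. Leaving out 1 library gave 201 to 499 higher and 198 to 476 lower of 13890 to 13988 genes tested, lowest without control 1. Among the 32 genes it gave 3 to 5 called higher. The number of the 32 called lower was 1 (UTRN) in limma-voom, beside 4.80% of all genes it tested. It was 2 (UTRN and DTNA) in DESeq2 without banded 3, beside 801 of 15226. Signs turned only for genes that were not called, and the cause was not tested. With library size scaling PTK2 was at -0.11, ITGA6 at -0.076 and DAG1 at -0.073. PTK2 was also at -0.10 in limma-voom, at -0.0030 with at least 50 counts in 4 libraries, and at -0.14 in DESeq2 without banded 3, where ITGA3 was at 0.014. With 1 library left out, log2 fold changes spanned -0.25 to 0.17 for ITGA1, -0.24 to 0.054 for ITGA3, -0.49 to 0.086 for ITGA5, -0.073 to 0.13 for ITGA6, -0.59 to 0.027 for ITGB3, -0.12 to 0.057 for TLN1, -0.18 to 0.010 for LIMS1, -0.25 to 0.024 for FERMT2, -0.14 to 0.064 for PTK2, -0.18 to 0.076 for ZYX and -0.064 to 0.13 for DAG1. The 4 ratios kept their signs in every alternative. With 4 animals a group, the exact test cannot go below 0.0286. Mean counts of the 32 genes ran from 180.0 (ITGA8) to 13163 (ITGB1) per library, KRT18 averaged 39.2, and what depth limits was not tested.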
